A study of Mus musculus with 15 samples.

Results

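The genes described here were Cst7 and 9 genes of the activation program that macrophages take up around lipid and cell debris, namely Clec7a, Itgax, Gpnmb, Lpl, Trem2, Tyrobp, Spp1, Cd68 and Axl. They were taken as a fixed list of 10 symbols, matched to 10 of the 55421 gene IDs counted, and all 10 were among the 18979 genes tested after removal of low counts. Cst7 was chosen by its change in level between the genotypes of these same libraries, so its values are a description and carry no test. The other 9 were listed as genes of the program, and the question was whether Cst7 rose along with them or apart from them.

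Tissue macrophages and microglia switch to a lipid-handling state where debris or lipid accumulates. TREM2 is a surface receptor for lipids and lipoproteins that signals through the adaptor TYROBP, and its signalling is known to be needed for the full program in microglia. Cst7 encodes cystatin F, an inhibitor of cysteine cathepsins that acts inside lysosomes, and it is among the genes that rise most in activated microglia. It is also known in natural killer and cytotoxic T cells. The posterior eyecup holds the retinal pigment epithelium, choroid and sclera, with their resident macrophages.

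RNA was sequenced from posterior eyecups without the neural retina of 2.5-month-old mice on the C57BL/6J background, with 1 library per mouse. There were 4 WT mice, 6 mice with 1 copy of the FUN025 mutation of Tmem135 (FUN025/+) and 5 mice with 2 copies (FUN025/FUN025). The mutation was in every cell of the animal, and no other allele or agent was used. The eyecups of each mouse were pooled, and both sexes were used without a label for the sex of each mouse. Levels are CPM, that is, counts set against library totals that were scaled between libraries, and P-values are from edgeR's quasi-likelihood test across all genes with Benjamini-Hochberg adjustment and a threshold of 0.05.

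Library totals were 18094977 to 20029919 counts in WT, 10903183 to 13456349 in FUN025/+ and 11053535 to 15038383 in FUN025/FUN025 eyecups, so that all WT libraries were deeper than all mutant ones and depth and genotype against WT cannot be told apart. Pigment epithelium markers were high in every library (summed level 16068 to 21582 CPM over 7 genes), and photoreceptor markers were also present (93.2 to 2171 CPM over 8 genes), highest in WT replicate 2. None of the 24 macrophage identity markers was at 0 in any genotype. In these bulk samples, fewer cells of a type and less RNA per cell cannot be told apart.

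The promoters of Cst7 and of the 2 other genes that were higher in FUN025/FUN025 than in WT eyecups, Trem2 and Cd68, are shown as the 250 bases before the annotated start (RefSeq, GRCm38.p6, gene strand, 5′ to 3′). Capitals mark matches, on either strand, to GAGGAA (the core bound by the macrophage factor PU.1) or TGACTCA (AP-1). The windows were chr2:150570165-150570414 on the plus strand for Cst7, chr17:48346151-48346400 on the plus strand for Trem2 and chr11:69666171-69666420 on the minus strand for Cd68.
Cst7: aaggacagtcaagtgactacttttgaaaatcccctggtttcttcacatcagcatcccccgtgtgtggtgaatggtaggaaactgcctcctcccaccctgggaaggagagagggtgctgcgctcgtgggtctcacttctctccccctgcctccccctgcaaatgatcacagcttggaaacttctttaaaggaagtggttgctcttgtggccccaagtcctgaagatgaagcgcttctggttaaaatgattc
Trem2: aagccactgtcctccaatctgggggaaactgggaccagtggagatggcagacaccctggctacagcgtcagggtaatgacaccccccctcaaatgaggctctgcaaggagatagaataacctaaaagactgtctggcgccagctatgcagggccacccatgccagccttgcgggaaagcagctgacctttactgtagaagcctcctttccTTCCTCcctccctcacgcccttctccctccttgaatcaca
Cd68: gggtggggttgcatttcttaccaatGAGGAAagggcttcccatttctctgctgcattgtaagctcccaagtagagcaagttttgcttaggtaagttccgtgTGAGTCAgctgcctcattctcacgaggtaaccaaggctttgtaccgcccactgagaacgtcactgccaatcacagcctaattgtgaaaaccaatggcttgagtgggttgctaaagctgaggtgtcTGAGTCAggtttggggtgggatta

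The Cst7 window held no match to GAGGAA or to TGACTCA and none to CACGTG, the E-box. Shorter or variant forms of these sites were not searched for, so a site for PU.1 in that window is not excluded. The Trem2 window held 1 GAGGAA match, and the Cd68 window held 1 GAGGAA and 2 TGACTCA matches. Of 32851 RefSeq windows of this length, 23.3% held GAGGAA, 4.46% TGACTCA and 6.02% CACGTG. No 2 of these motifs overlapped in the printed windows. Of the 10 genes, 8 had a promoter in the table, and among those not printed, Clec7a, Axl and 1 of 2 Spp1 windows held GAGGAA, Itgax held TGACTCA and Gpnmb held none.

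Cst7 lies on chromosome 2 from 150570415 to 150578944 (GRCm38) and overlaps no other annotated gene. It was close to the limit of counting in WT eyecups, with 2, 5, 4 and 6 counts in the 4 libraries, and in FUN025/+ eyecups, with 2 to 10 counts. The 5 FUN025/FUN025 libraries held 75, 53, 45, 95 and 40 counts. In levels, WT eyecups were at 0.111, 0.269, 0.200 and 0.334 CPM. FUN025/+ eyecups ranged from 0.15 to 0.824 CPM with a median of 0.539. FUN025/FUN025 eyecups were at 4.93, 4.08, 3.61, 7.81 and 3.63 CPM.

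All 5 FUN025/FUN025 libraries were thus above all other libraries, whereas WT and FUN025/+ libraries overlapped. Mean levels were 0.228 ± 0.0953 CPM (SD, n = 4) in WT, 0.521 ± 0.233 (n = 6) in FUN025/+ and 4.81 ± 1.76 (n = 5) in FUN025/FUN025 eyecups. The log2 fold change was 4.35 (SE 0.37) for FUN025/FUN025 against WT and 3.19 (SE 0.30) against FUN025/+. For FUN025/+ against WT it was 1.15 (SE 0.45), with the levels of those 2 groups overlapping. Summed counts per scaled depth gave ratios of 21.2 (95% interval 13 to 36.8), 9.32 (6.64 to 13.4) and 2.27 (1.25 to 4.29) in the same order, intervals that cover counting error only. In both comparisons of FUN025/FUN025 eyecups, Cst7 had the 3rd highest log2 fold change of the 18979 genes, and in FUN025/+ against WT it was 226th. These ranks restate the change by which Cst7 was chosen.

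**Figure D1:**
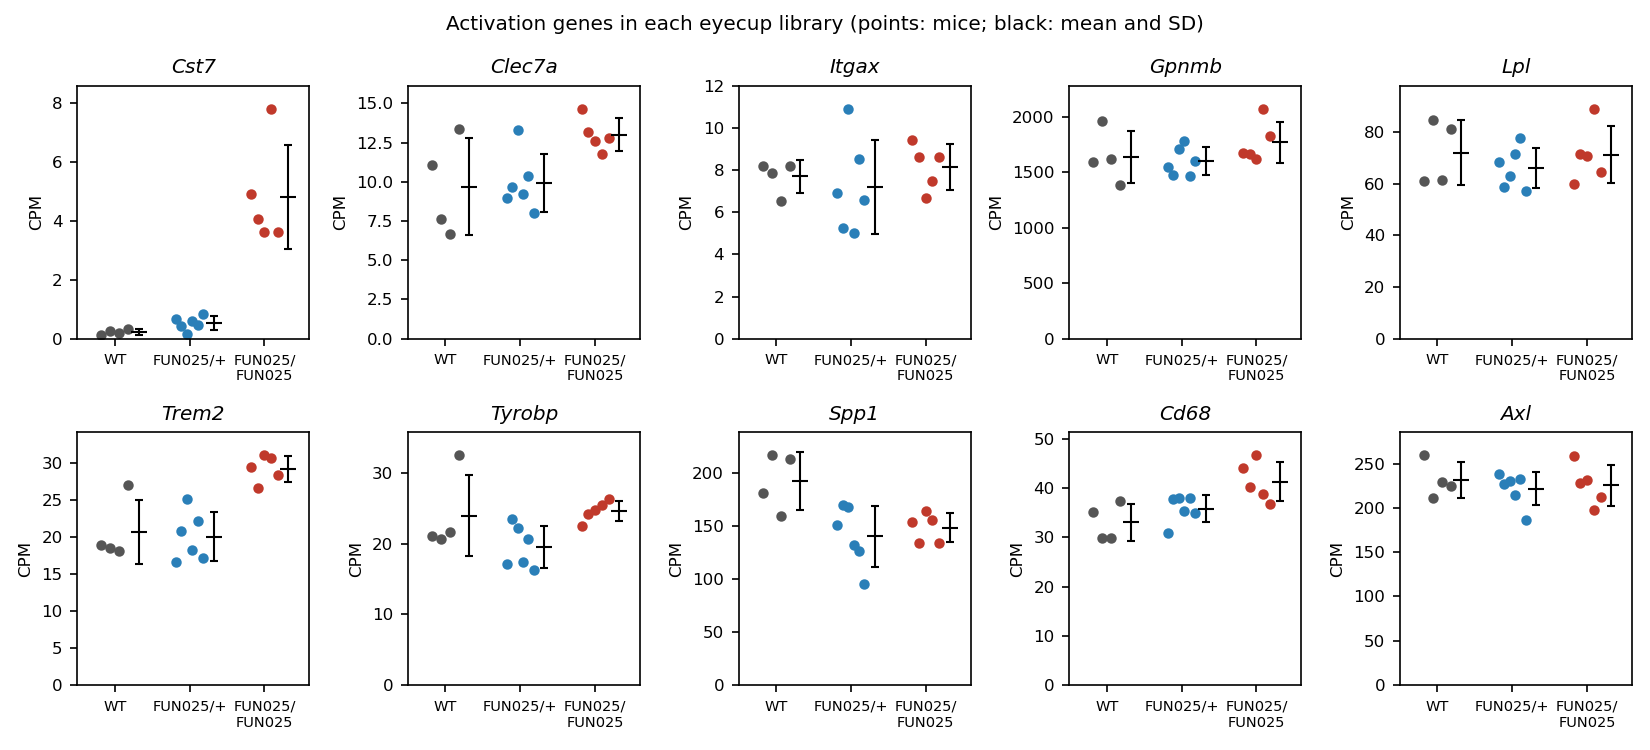
Level in CPM (vertical axes, each from 0) of the 10 genes in each library, by genotype. Points are mice and black marks are the mean and SD. Cst7 is between 3.61 and 7.81 CPM in FUN025/FUN025 and at most 0.824 CPM elsewhere, while the other 9 genes lie on similar scales in the 3 genotypes.

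Per kilobase of exon, Cst7 was the lowest of the 10 genes in WT eyecups, at 0.232 CPM per kb. The order there was Gpnmb (252), Spp1 (117), Axl (45.9), Tyrobp (36.0), Cd68 (26.3), Lpl (6.87), Trem2 (4.19), Clec7a (3.67), Itgax (1.61) and Cst7. In FUN025/FUN025 eyecups Cst7 reached 4.88 CPM per kb, beside Clec7a at 4.93 and Trem2 at 5.92 and above Itgax at 1.70. The order of the other genes was the same in both genotypes. Gpnmb, a glycoprotein of pigment cells as well as of lipid-laden macrophages, was above the macrophage receptor Csf1r (42.7 CPM per kb in WT) in every genotype. So was Spp1, at 117 in WT, 85.1 in FUN025/+ and 90.1 in FUN025/FUN025 eyecups, and Axl was close to Csf1r (45.9 in WT). Which cells held the transcripts of the 10 genes was not tested, so flat or lower levels cannot be assigned to macrophages.

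Among the 9 other genes, Trem2 and Cd68 were higher in FUN025/FUN025 than in WT eyecups, and the other 7 did not pass the test. The background was 7.03% of all genes tested called higher, 7.02% called lower and 14.0% called in either direction, and the count of 2 of 9 was not tested against it. The median log2 fold change of the 9 was 0.08, with 6 of 9 above 0, beside a median of -0.0071 over all genes. At an unadjusted P under 0.05 there were 3 genes higher (Trem2, Cd68 and Clec7a) and 1 lower (Spp1). No upper bound of the 95% intervals of the 9 exceeded 0.80. The log2 fold change of Cst7 was 4.35, but Cst7 was chosen for its change, so that its larger value is no test of the difference.

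Trem2 (chromosome 17, 48346401 to 48354147), the lipid receptor of the program, was at 19.0, 18.6, 18.1 and 27.1 CPM in WT eyecups and at 29.5, 26.7, 31.1, 30.7 and 28.4 CPM in FUN025/FUN025 eyecups. FUN025/+ eyecups ranged from 16.6 to 25.2 CPM with a median of 19.6. The FUN025/FUN025 libraries were above all FUN025/+ libraries and above 3 of 4 WT libraries, with WT replicate 4 falling within their range. The log2 fold change was 0.50 (SE 0.13) against WT (adjusted P = 0.0151) and 0.55 (SE 0.12) against FUN025/+ (adjusted P = 0.0398). The change against WT passed in all 15 fits that left out 1 library, but the change against FUN025/+ passed in 4 of 15, with adjusted P from 0.00749 to 0.133.

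Tyrobp, the signalling adaptor that TREM2 requires at the cell surface, did not pass the test in either comparison with WT. It was at 21.1, 20.7, 21.6 and 32.5 CPM in WT and at 22.5, 24.2, 24.8, 25.5 and 26.4 CPM in FUN025/FUN025 eyecups, with overlap through WT replicate 4. FUN025/+ eyecups were at 16.3 to 23.5 CPM with a median of 19.0. The log2 fold changes were 0.04 (95% interval -0.24 to 0.32, adjusted P = 0.875) for FUN025/FUN025 and -0.29 (-0.56 to -0.03, adjusted P = 0.131) for FUN025/+, each against WT.

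Clec7a, which encodes the beta-glucan receptor Dectin-1 and is annotated in the mouse genome used as a polymorphic pseudogene, was at 11.1, 7.64, 6.69 and 13.3 CPM in WT and at 14.6, 13.2, 12.6, 11.8 and 12.8 CPM in FUN025/FUN025 eyecups. The WT libraries were widely spread and overlapped with the mutant ones. The log2 fold change was 0.43 (SE 0.17, adjusted P = 0.114), and it passed in 1 of 15 fits that left out a library, without WT replicate 4, at 0.63 (adjusted P = 0.0269). Axl, a receptor tyrosine kinase for bridging molecules on dying cells, was at 259, 211, 229 and 225 CPM in WT and at 259, 228, 231, 197 and 212 CPM in FUN025/FUN025 eyecups. The groups overlapped throughout, and the log2 fold change of -0.03 had a narrow interval of -0.20 to 0.13 (adjusted P = 0.813).

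Cd68 (chromosome 11, 69664213 to 69666153), a glycoprotein of macrophage lysosomes, was at 35.3, 30.0, 29.8 and 37.3 CPM in WT and at 44.1, 40.3, 46.7, 38.8 and 36.8 CPM in FUN025/FUN025 eyecups. FUN025/+ eyecups lay between 30.9 and 38.0 CPM with a median of 36.6. The lowest FUN025/FUN025 library was under the highest WT library. The log2 fold change was 0.32 (SE 0.08, adjusted P = 0.0167) and passed in all 15 fits that left out a library and in 10 of 11 other settings, with an adjusted P of 0.0514 in the one that also fitted the replicate number. Against FUN025/+ the log2 fold change was 0.21 (adjusted P = 0.553).

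Itgax, the integrin CD11c, was at 6.54 to 8.23 CPM in WT, 5.04 to 10.9 in FUN025/+ and 6.67 to 9.46 in FUN025/FUN025 eyecups, and its log2 fold change against WT in FUN025/FUN025 was 0.08 (95% interval -0.30 to 0.47, adjusted P = 0.798). Of its exonic 31-base stretches 10.7% also occur in other genes, so its counts are less certain. Gpnmb had WT levels of 1386 to 1958 CPM and FUN025/FUN025 levels of 1616 to 2071 CPM (log2 fold change 0.11, interval -0.08 to 0.31, adjusted P = 0.468). Lpl, the lipoprotein lipase that frees fatty acids from triglyceride, had WT levels of 60.9 to 84.5 CPM and FUN025/FUN025 levels of 59.8 to 88.9 CPM (log2 fold change -0.02, interval -0.30 to 0.26, adjusted P = 0.943). For all 3 genes the FUN025/FUN025 range covered much of the WT range.

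Spp1, the secreted phosphoprotein osteopontin, had a lower mean in both mutants than in WT eyecups, as did Axl and Lpl by smaller amounts. WT eyecups were at 182, 217, 159 and 213 CPM, FUN025/+ eyecups at 95 to 169 CPM with a median of 141, and FUN025/FUN025 eyecups at 154, 134, 164, 156 and 134 CPM. WT replicate 3 lay within the range of both mutants. The log2 fold change was -0.46 (SE 0.14, adjusted P = 0.0495) for FUN025/+ and -0.38 (SE 0.15, adjusted P = 0.113) for FUN025/FUN025. The FUN025/+ call passed in 4 of 15 fits that left out a library, and 14.3% of the exonic 31-base stretches of Spp1 occur in other genes.

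In FUN025/+ against WT eyecups, Spp1 was thus the 1 gene called of the 9, and 0 were called higher (2 at an unadjusted P under 0.05 in edgeR, both lower, and 0 called higher by DESeq2 or limma-voom). The background was 7.09% of genes called higher, 6.61% lower and 13.7% in either direction, and the median of the 9 was -0.06. In FUN025/FUN025 against FUN025/+ eyecups all 9 log2 fold changes were above 0, those of Spp1 and Axl not in every fit that left out a library, with a median of 0.18, and 1 was called higher, Trem2, where 0.327% of all genes were called higher, 0.195% lower and 0.522% in either direction. Tyrobp was at 0.33 (adjusted P = 0.533) and Clec7a at 0.39 (adjusted P = 0.681) there. Trem2 was also the 1 gene of the 9 whose libraries did not overlap, which 0.627% of all genes did in that direction. The comparisons share samples, so that they are not separate support for each other.

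**Figure D2:**
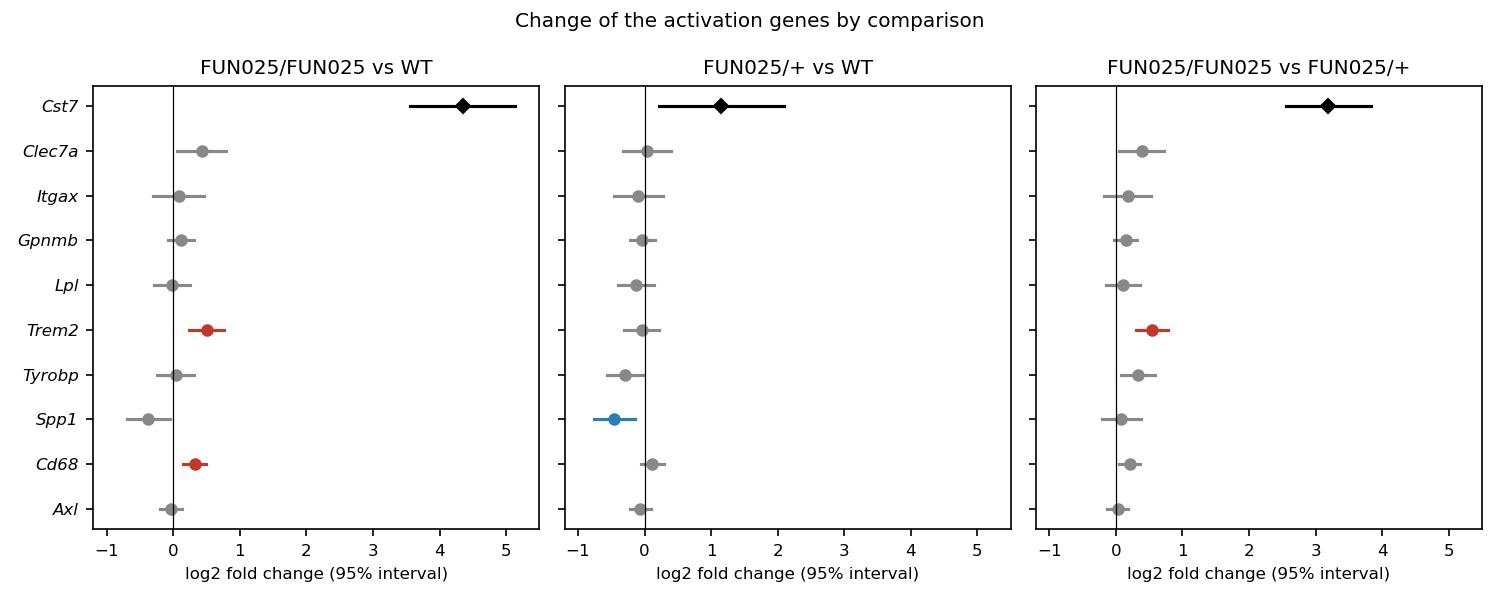
Log2 fold change (horizontal axes) of each of the 10 genes in the 3 comparisons, with 95% intervals. Red and blue mark genes called higher and lower, grey those not called, and black diamonds Cst7, which was not tested. Cst7 lies at 4.35, 1.15 and 3.19, and the other genes between -0.46 and 0.55.

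Levels were also set against the macrophage markers of each library. The summed level of the 24 macrophage identity markers was 918 to 1102 CPM in WT, 858 to 1243 in FUN025/+ and 958 to 1082 in FUN025/FUN025 eyecups, with overlap of all 3 genotypes. None of the 24 was called in any comparison in edgeR (1, 2 and 4 at an unadjusted P under 0.05 for FUN025/FUN025 and FUN025/+ against WT and for FUN025/FUN025 against FUN025/+), and DESeq2 and limma-voom each called 1 lower, Fcgr3, in FUN025/+ against WT. In the same order, edgeR called 14.0%, 13.7% and 0.522% of all genes. The median log2 fold change of the 24 in FUN025/FUN025 against WT was 0.07. Per 1000 CPM of these markers, whose sum differed little between genotypes, so that the ratio restates the level by which Cst7 was chosen, Cst7 was at 0.229 ± 0.0915 CPM in WT, 0.550 ± 0.289 in FUN025/+ and 4.73 ± 1.99 in FUN025/FUN025 eyecups (SD, n = 4, 6 and 5).

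On the same scale Trem2 was at 20.6 ± 2.88 in WT, 20.4 ± 2.82 in FUN025/+ and 28.4 ± 2.27 in FUN025/FUN025 eyecups. Cd68 was at 33.0 ± 0.642, 36.5 ± 3.72 and 40.0 ± 3.31, with ranges of 32.5 to 33.9, 30.5 to 41.1 and 34.5 to 43.1. Tyrobp per marker was alike in WT and FUN025/FUN025 eyecups, at 23.9 ± 4.09 and 23.9 ± 1.94. These ratios are descriptions, and no test was made of them.

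The summed markers of other immune cells overlapped between WT and FUN025/FUN025 eyecups. Cytotoxic lymphocyte markers, 15 genes of cells that can also hold Cst7, summed to 6.39 to 12.5 CPM in WT, 5.74 to 10.8 in FUN025/+ and 6.99 to 11.2 in FUN025/FUN025 eyecups. The T cell genes Cd3e, Cd3d and Cd3g had means of at most 0.311 CPM in any genotype, and 10 of the 15 genes were too low to be tested. Of the other 5, 0 were called in any comparison by edgeR, DESeq2 or limma-voom, and 0 had an unadjusted P under 0.05. With 5 genes and a background of 14.0%, 13.7% and 0.522% this count says little. Dendritic cell markers summed to 36.3 to 41.8 CPM in WT, 29.0 to 36.4 in FUN025/+ and 28.9 to 36.6 in FUN025/FUN025 eyecups. Of the 8 tested, 1 was lower in FUN025/FUN025 than in WT in edgeR, DESeq2 and limma-voom, the transcription factor gene Zbtb46 (log2 fold change -0.45, adjusted P = 0.0163 in edgeR). The list's median was -0.22. Whether the change of Zbtb46 came from dendritic cells or from other cells was not tested. Over all genes 7.02% were called lower there. Neutrophil and monocyte markers summed to 18.1 to 27.1, 16.9 to 28.1 and 24.0 to 31.4 CPM, and mast cell markers to 54.7 to 61.8, 51.3 to 75.7 and 43.2 to 65.7 CPM. The mast cell protease gene Cma1 was lower in FUN025/+ than in WT eyecups (-0.96, adjusted P = 0.0182 in edgeR) and was also called by DESeq2 and limma-voom, which called Mcpt4 lower as well. Zbtb46, Cma1 and Mcpt4 were named after their values were seen.

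Skeletal muscle markers summed to 2925 to 5979 CPM in WT, 1591 to 4514 in FUN025/+ and 2620 to 3412 in FUN025/FUN025 eyecups, and endothelial markers to 887 to 1038, 689 to 950 and 617 to 773 CPM. In FUN025/FUN025 against WT, 2 of 7 muscle genes and 5 of 6 endothelial genes were called lower, beside 7.02% of all genes, and the summed levels overlapped for muscle and not for endothelium. Photoreceptor markers summed to 231 to 2171 CPM in WT, 93.2 to 636 in FUN025/+ and 105 to 407 in FUN025/FUN025 eyecups. Their median log2 fold change against WT was -1.84 in FUN025/FUN025 and -1.77 in FUN025/+, and 0 of 8 were called by edgeR, DESeq2 or limma-voom, with 5 and 6 lower at an unadjusted P under 0.05 in edgeR. Trem2 and Cd68 passed in FUN025/FUN025 against WT in all 15 fits that left out 1 library. Those fits were no test of photoreceptor content. No list had a marker at 0 in every library except the cystatin list described below. The part of these other cells, and of depth, in the changes of Trem2, Cd68 and Spp1 was not tested. When all libraries were thinned to the lowest total, Cst7 was at 4.05 and Trem2 at 0.48 in FUN025/FUN025 against WT on the log2 scale. The call of Spp1 in FUN025/+ against WT was lost on thinning.

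**Figure D3:**
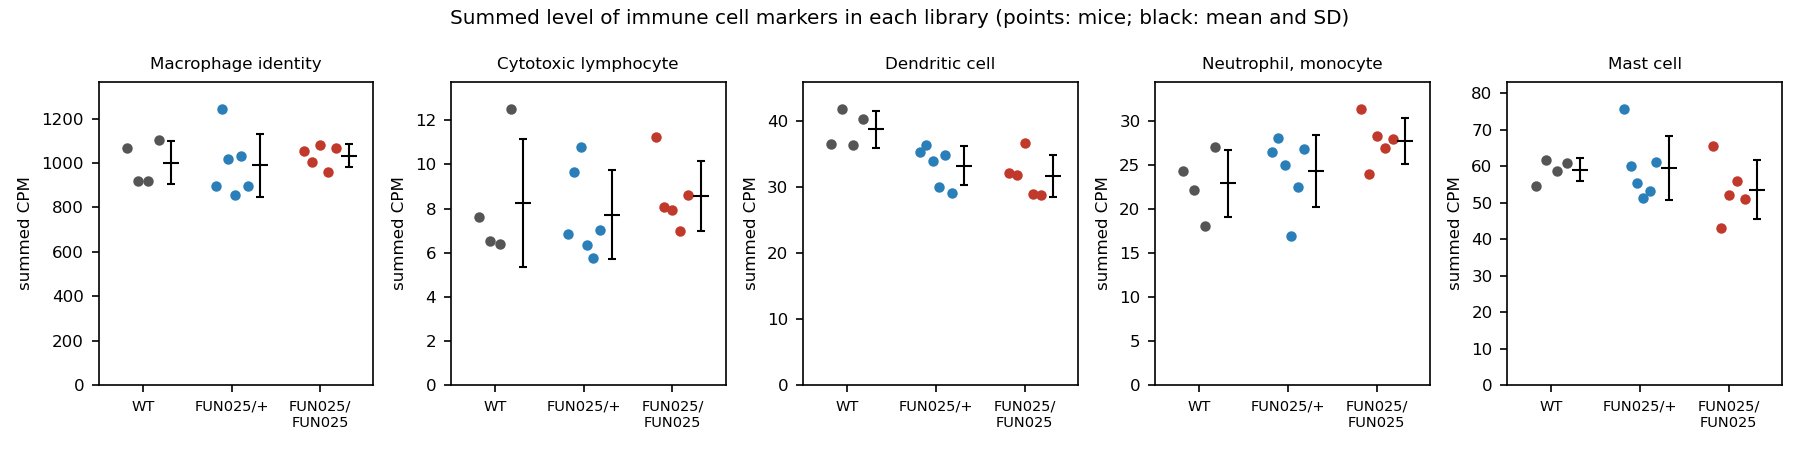
Summed level in CPM (vertical axes, each from 0) of the markers of 5 immune cell types in each library. Points are mice and black marks the mean and SD. Macrophage identity markers lie between 858 and 1243 CPM in all genotypes, and cytotoxic lymphocyte markers between 5.74 and 12.5 CPM.

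Beyond the 10 genes, a wider list of 52 genes that rise in activated microglia and lipid-laden macrophages was examined, of which 51 were tested. In FUN025/FUN025 against WT eyecups edgeR called 4 higher and 0 lower, and 47 did not pass, with a median log2 fold change of 0.05. At an unadjusted P under 0.05 in edgeR, 7 were higher and 2 lower. DESeq2 called 6 higher and 1 lower, and limma-voom 4 higher and 0 lower. The share called higher by edgeR was near the 7.03% of all genes. Ch25h, which makes 25-hydroxycholesterol, went from 5.16 ± 0.527 CPM (WT) to 8.47 ± 1.16 CPM (FUN025/FUN025, log2 fold change 0.72, SE 0.13, adjusted P = 0.00142). Plin2, a coat protein of lipid droplets, went from 94.1 ± 4.34 to 120 ± 6.30 CPM (0.36, SE 0.09, adjusted P = 0.0122). The other 2 called by edgeR were Hif1a, the hypoxia-inducible factor, and Dkk2, a secreted WNT pathway regulator, at 0.32 (adjusted P = 0.0106) and 0.38 (adjusted P = 0.00642).

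Of the whole list 6 of 51 genes were higher and 1 lower without overlap between the 2 genotypes, where 7.27% of all genes tested were higher and 7.50% lower without overlap. The 4 genes called by edgeR are also expressed outside macrophages. Genes of the list that mark the program most often, such as Apoe (0.05, adjusted P = 0.735), Cd9 (0.06, adjusted P = 0.506) and Lgals3 (-0.08, adjusted P = 0.839), did not pass; these 3 were picked as examples with their values known. In FUN025/+ against WT eyecups Dkk2 was higher (0.38, adjusted P = 0.0045) and Fabp4, a fatty acid carrier of fat cells and macrophages, and Cd63, a tetraspanin of late endosomes, were lower (-0.97, adjusted P = 0.0166, and -0.22, adjusted P = 0.037). These calls, 1 higher and 2 lower of 51, stood beside 7.09% higher and 6.61% lower over all genes, and their total was 1 without WT replicate 4, 2 without WT replicate 3, FUN025/+ replicate 1 or 4 or FUN025/FUN025 replicate 1, and 5 without FUN025/+ replicate 2. Fabp4 moved along with adipocyte markers, which summed to 6.59 to 27.8 CPM in WT and 3.77 to 5.69 in FUN025/+ eyecups, and their part in it was not tested. In FUN025/FUN025 against FUN025/+ eyecups 1 of 51 was called, Plin2, at 0.45 (SE 0.08, adjusted P = 0.00815), where 0.327% of all genes were called higher.

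Of 14 genes of TREM2 signalling and shedding, 13 were tested and edgeR called 1 in each comparison with WT, Adam10, a protease that sheds TREM2 and many other surface proteins. It was at 132 ± 8.02 CPM in WT, 156 ± 7.52 in FUN025/+ and 157 ± 8.04 in FUN025/FUN025 eyecups. Against WT the log2 fold change was 0.24 in both mutants (adjusted P = 0.00487 and 0.00553). The share of the list called higher was near that of all genes, 7.09% in FUN025/+ and 7.03% in FUN025/FUN025. The mutants overlapped with each other and not with WT, and 5.75% of all genes were above WT without overlap in FUN025/+ eyecups. The kinase and phospholipase genes downstream of TYROBP were not called in edgeR. Inpp5d, a lipid phosphatase that limits this signalling, was lower in FUN025/+ than in WT eyecups in limma-voom and did not pass in edgeR (-0.32, adjusted P = 0.0721). Over the list, the median was -0.08 in both comparisons with WT. In each of them 1 gene was higher and 2 were lower at an unadjusted P under 0.05 in edgeR. In FUN025/FUN025 against WT, 1 gene was higher and 1 lower without overlap, beside 7.27% and 7.50% of all genes. Between the mutants, 0 of the 13 were called in edgeR, DESeq2 or limma-voom, and 0 had an unadjusted P under 0.05.

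Homeostatic microglia genes, which fall when the full program sets in, were examined next. Of 12 genes 11 were tested, and in FUN025/FUN025 against WT eyecups 2 were higher and 0 lower in edgeR (1 lower at an unadjusted P under 0.05, and 1, Sparc, called lower by DESeq2 and limma-voom), with a median of 0.09, where 7.03% of all genes were higher and 7.02% lower. P2ry13, a purine receptor of microglia, was at 3.55 ± 1.32 CPM in WT, 4.29 ± 0.812 in FUN025/+ and 6.49 ± 1.45 in FUN025/FUN025 eyecups (log2 fold change 0.87 for FUN025/FUN025 against WT, SE 0.22, adjusted P = 0.0152). P2ry13 was named because it was called.

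The targets of cystatin F and its family were also compared. Of 19 cystatin and cathepsin genes other than Cst7, 15 were tested, and in FUN025/FUN025 against WT eyecups 1 was called, Ctso, at 54.6 ± 3.82 against 64.9 ± 5.08 CPM (log2 fold change 0.25, SE 0.07, adjusted P = 0.0214). This share was close to the 7.03% of all genes called higher. Cathepsin C (Ctsc) and cathepsin L (Ctsl), both known to be inhibited by or to act with cystatin F, were at 0.12 (95% interval -0.02 to 0.27, adjusted P = 0.235) and 0.11 (0.01 to 0.20, adjusted P = 0.121). Ctsb was at 0.16 (adjusted P = 0.0737) and Ctss at 0.27 (adjusted P = 0.196). DESeq2 called Ctsb, Ctsl and Ctso higher.

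The other cathepsins Ctsh (0.09), Ctsk (0.10), Ctsf (-0.09), Ctsz (-0.00) and Ctsw (0.54, adjusted P = 0.0904), and the related protease Lgmn (-0.01), did not pass. Of the cystatins, Cst3, the most abundant with a WT mean of 2868 CPM and a FUN025/FUN025 mean of 3117 CPM, was at 0.12 (adjusted P = 0.383), Cst6 at -0.30 (adjusted P = 0.2) and Cstb at 0.05 (adjusted P = 0.733). Csta1 had counts between 3 and 77 and a log2 fold change of 1.1 with an SE of 0.88 (adjusted P = 0.445). Cst8, Cst9 and Cst12 held at most 2 counts in total in any genotype, with Cst12 at 0 in every library, and Cst10 stayed under the filter. In FUN025/+ against WT 0 of the 15 were called in edgeR (3 at an unadjusted P under 0.05), and DESeq2 and limma-voom each called 1, Ctsc. Between the mutants 0 were called by any of the 3 tools (2 at an unadjusted P under 0.05 in edgeR).

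**Figure D4:**
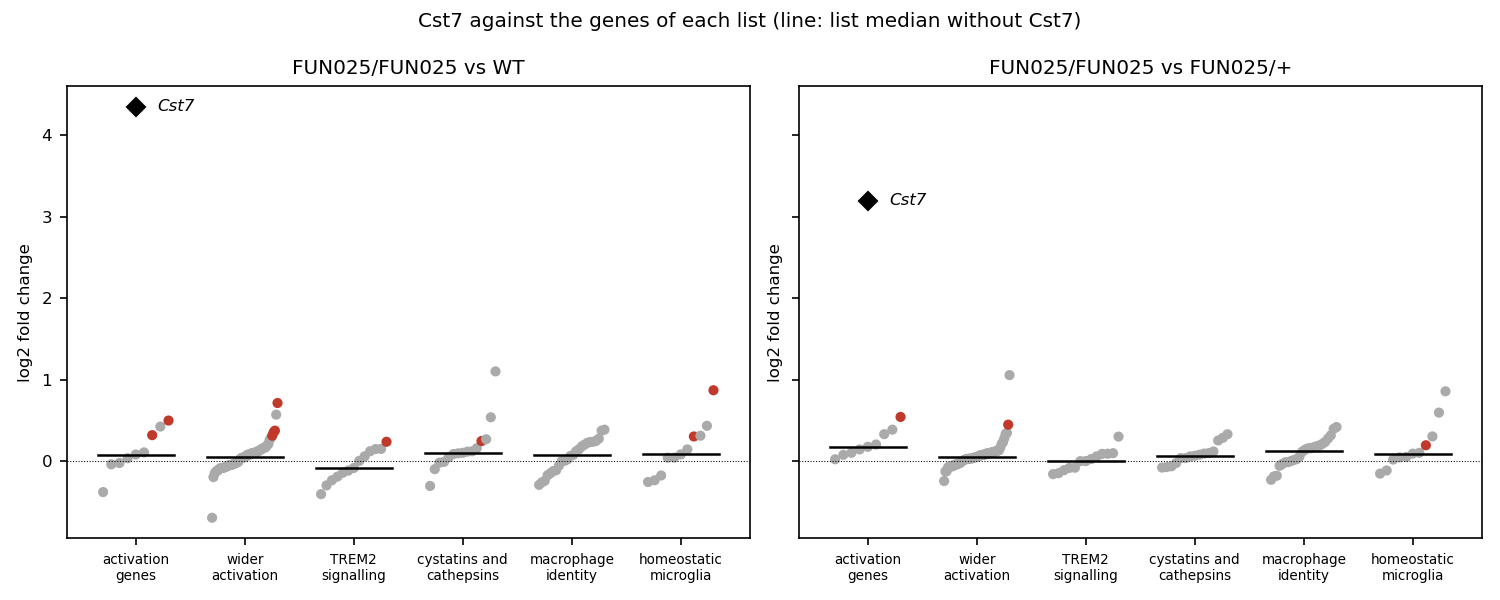
Log2 fold change (vertical axis) of the genes of 6 lists in FUN025/FUN025 eyecups against WT (left) and against FUN025/+ (right). Points are genes, red where called higher and grey where not called, lines are list medians without Cst7, and the black diamond is Cst7. List medians lie between -0.08 and 0.18, and Cst7 at 4.35 and 3.19.

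The 5 FUN025/FUN025 mice were not ordered alike by Cst7 and by the other genes. Replicate 4, highest for Cst7 at 7.81 CPM, was also highest for Gpnmb and Lpl, lowest for Clec7a and Axl and 2nd for Trem2. Replicate 3, lowest for Cst7 at 3.61 CPM, was highest for Trem2, Cd68 and Spp1 and also lowest for Itgax and Gpnmb. The spread among the 5 mice was a coefficient of variation of 36.5% for Cst7, against 6.11% for Trem2 and 9.66% for Cd68. Replicates 3 and 5 were almost level for Cst7, at 3.61 and 3.63 CPM from 45 and 40 counts. Counting error was not separated from these small differences, so the order cannot show whether Cst7 moved along with the other genes.

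As a description of likeness, the Pearson correlation of log2 CPM with Cst7 was taken over the 15 libraries for 17586 genes with a mean of at least 1 CPM. The libraries share the genotype groups, and the 5 FUN025/FUN025 libraries stand apart for Cst7, so that this measure ranks mainly genes that separate them. The 5 most alike were Scd2 (r = 0.95), Fasn (0.94), Scd1 (0.94), Daam1 (0.94) and Fads1 (0.93). Scd1 and Scd2 are fatty acid desaturases, Fasn is fatty acid synthase, Fads1 makes polyunsaturated fatty acids and Daam1 is a regulator of actin. Scd1 was at 96.2 ± 12.2 CPM in WT, 98.2 ± 12.5 in FUN025/+ and 344 ± 30.9 in FUN025/FUN025 eyecups. Scd2 was at 511 ± 24.0, 656 ± 62.5 and 1261 ± 49.4 CPM, with all FUN025/+ libraries above all WT libraries. The log2 fold changes for FUN025/+ against WT were 0.03 for both Scd1 and Fasn, 0.14 for Daam1, 0.16 for Fads1 and 0.36 for Scd2.

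Of the 9 activation genes, Trem2 ranked 179th (r = 0.70), Cd68 385th (0.62) and Clec7a 1213th (0.50), Gpnmb was at 0.41, Tyrobp at 0.28, Lpl at 0.19, Itgax at 0.10, and Axl (-0.18) and Spp1 (-0.32) were below 0. After subtraction of each genotype's mean, the correlations of the 9 were between -0.53 for Axl and 0.42 for Lpl, with -0.30 for Trem2 and -0.31 for Cd68. The 5 genes most alike on that measure were Myadml2os (0.87), Ebp (0.86), Lmbr1l (0.85), Bcas1os1 (0.85) and Mbnl3 (0.85). In WT and FUN025/+ libraries these values rest on 2 to 10 counts of Cst7.

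**Figure D5:**
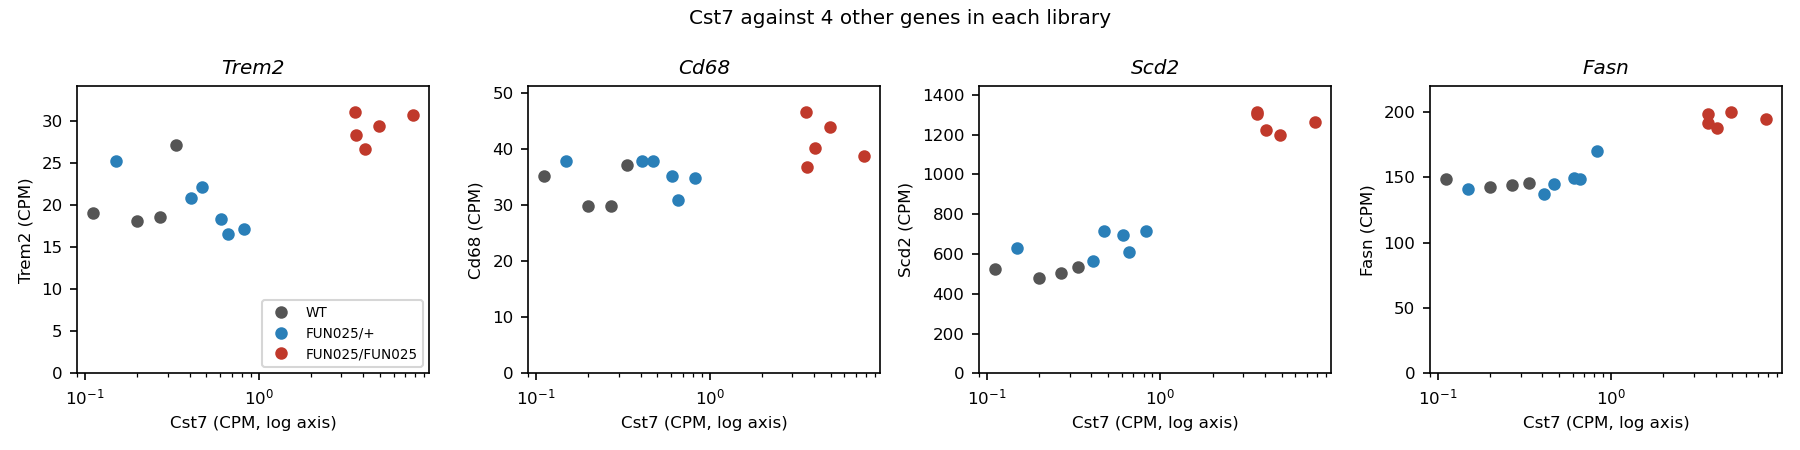
Level of Trem2, Cd68, Scd2 and Fasn in CPM (vertical axes, from 0) against Cst7 in CPM (horizontal axis, log scale) in the 15 libraries, coloured by genotype. The 5 FUN025/FUN025 libraries form a group at 3.61 to 7.81 CPM of Cst7, apart from the other 10 libraries at no more than 0.824 CPM.

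The 4 genes beside Cst7 on chromosome 2 that were tested had log2 fold changes between -0.11 and 0.23 in FUN025/FUN025 against WT eyecups. Of the 3 nearest protein-coding genes on each side, Apmap, which starts 4136 bases after Cst7, was at 52.9 ± 2.32 CPM in WT, 62.6 ± 3.2 in FUN025/+ and 62.2 ± 5.72 in FUN025/FUN025 eyecups. It was higher in both mutants than in WT, by 0.24 (adjusted P = 0.0129) in FUN025/+ and 0.23 (adjusted P = 0.02) in FUN025/FUN025, and differed by -0.01 between the mutants (adjusted P = 1.0). Acss1, 39161 bases away, was at 0.03 (adjusted P = 0.874) in FUN025/FUN025 against WT. On the other side Gm10130 and Zfp442 were at -0.11 (adjusted P = 0.749) and 0.00 (adjusted P = 0.993), and Zfp345 and Vsx1 were too low to be tested.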

How the data were processed

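Per the labels, total RNA of each mouse's eyecups was made into NEBNext Ultra libraries. The submitters' processing notes name FastQC 0.11.8, Trimmomatic 0.39, HISAT2 2.1.0, SAMtools, featureCounts 2.0.0 and GRCm38. The deposited values are raw counts of reads per Ensembl gene that the authors made, and the annotation release and strand setting are not given in the sources used here. GENCODE M21 gave symbol and position for 55240 of 55421 IDs. Genotypes were taken from the labels and not checked from the counts.

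As in the study's methods, the least variable 15% of genes were dropped, leaving 47108, and edgeR's filterByExpr left 18979. All 15 mice were fitted in one model with edgeR 4.0.16 (TMM scaling, robust glmQLFit, glmQLFTest) in R 4.3.3, with Benjamini-Hochberg adjustment over all genes tested and a threshold of 0.05. CPM are relative to TMM-scaled totals. Log2 CPM used a prior count of 2. A count of 0 allows up to 3 counts. DESeq2 1.42.0, limma-voom (limma 3.58.1), other scalings and filters, a replicate block, the level of Xist as a stand-in for sex, and leaving out each library were tried. The code was checked on simulated counts. No 2 libraries of a group agreed within sampling noise.

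The 10 genes and all lists were chosen with earlier results of these data known. The genes named were the 10, every called gene (up to 8 a list) of the wider activation, TREM2 signalling and macrophage identity lists, every cystatin and cathepsin gene tested, the 3 nearest protein-coding genes on each side of Cst7, and the 5 genes most correlated with Cst7 by each measure. Other genes were named after their values were seen. The values of 1 called gene of the homeostatic microglia list are not reported here. Replicate numbers do not pair the mice.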

Additional observations from a re-analysis of the deposited data

Results flagged for a closer look

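Of 81 groups of 4 to 6 libraries checked, 6 held a library far from the others of its genotype. The rule was Dixon's ratio of gap to range, with limits that flag about 1 in 20 groups of normally distributed values. WT replicate 4 was apart for Trem2 (27.1 CPM, the other 3 at 18.1 to 19.0 CPM) and for Tyrobp (32.5 CPM, the others at 20.7 to 21.6 CPM), and also for the summed adipocyte markers (27.8 CPM). WT replicate 2 was apart for the summed homeostatic microglia list (2019 CPM, the lowest of its group) and the summed melanocyte markers (10102 CPM, the highest). FUN025/+ replicate 2 was apart for the summed TREM2 signalling genes (422 CPM, against a median of 355 CPM in its group). Without WT replicate 4 the log2 fold change of Trem2 in FUN025/FUN025 against WT was 0.66.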

How the results depend on the processing

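The log2 fold change of Cst7 stayed between 4.11 and 4.57 against WT, 2.96 and 3.37 between the mutants and 0.94 and 1.38 for FUN025/+ when 1 library was left out. It has no value with at least 10 counts required in every library, nor for FUN025/+ against WT with only those genotypes fitted, where it fails the filter. With 1 library left out, the count of called genes among the other 9 was 2 to 3 in FUN025/FUN025 and 0 to 1 in FUN025/+ against WT and 0 to 1 between the mutants, and in the wider list 4 to 5, 1 to 5 and 1 throughout. The call of Spp1 in FUN025/+ against WT was lost, leaving 0 of 9, with DESeq2 size factors, library totals only, no low-count filter, only the 2 genotypes fitted, the replicate block and thinning. DESeq2's test called 7 of the wider list in FUN025/FUN025 and 5 in FUN025/+ against WT, and the fit with Xist called 5 in FUN025/+. The call of Spp1 in FUN025/FUN025 against WT was gained with DESeq2 (adjusted P = 0.0465), only 2 genotypes (adjusted P = 0.0284) and Xist (adjusted P = 0.0166). Thinning all libraries to the lowest total, chosen after seeing the data, left 0 of 9 between the mutants. Of the 30 log2 fold changes of the 10 genes, 8 changed sign in some fit, none of them called. With 1 library left out, FUN025/FUN025 against WT ranged from -0.10 to 0.078 for Lpl, -0.017 to 0.23 for Tyrobp and -0.080 to 0.024 for Axl, FUN025/+ against WT from -0.10 to 0.24 for Clec7a, -0.12 to 0.12 for Trem2 and -0.10 to 0.066 for Gpnmb, and the mutants from -0.0093 to 0.15 for Spp1 and -0.026 to 0.076 for Axl. Thinning gave -0.011 for Clec7a in FUN025/+, and the replicate block -0.0042 for Spp1 and -0.023 for Axl between the mutants. The cause of these differences was not tested.

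Same-numbered mice are different animals, and their deviations from the group means correlated at -0.38 to 0.13 over 13 pairs, with 1 over 0.1, so the numbers do not pair the samples. With a replicate block, 1 of 9 was called in FUN025/FUN025 against WT, 0 in FUN025/+ against WT and 0 between the mutants, and 0 of the wider list between the mutants. Cd68 was then at adjusted P = 0.0514 against WT and Trem2 at 0.153 between the mutants. Counts of 2 to 10 for Cst7 limit its precision in WT and FUN025/+ eyecups.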
